A study of Mus musculus with 6 samples.

Results

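The genes described here encode the proteasome outside the immunoproteasome, chosen by name alone. They are the genes whose symbol starts with Psm, then a letter from a to g and a digit, without the immunoproteasome genes Psmb8, Psmb9 and Psmb10. Of 24982 gene symbols in the count tables, 47 matched. They comprised 16 genes of the core particle (Psma and Psmb), 20 of the regulatory cap (Psmc and Psmd), 10 other genes (Psme, Psmf and Psmg) and Psmc3ip. Psmc3ip shares the name but encodes a meiotic recombination factor, and it was kept apart. RNA came from KMWT1, a mouse glioma cell line, 48 hours after transfection with siRNA. Samples 1, 2 and 3 received a control siRNA and samples 4, 5 and 6 a pooled siRNA against YY1, a zinc finger transcription factor. The comparison asks what lowering YY1 does to gene expression. The labels do not state whether samples within a group were grown as separate cultures. The p-values therefore rest on sample-to-sample spread that may be technical in part or whole.

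The proteasome degrades proteins marked with ubiquitin. Its core particle is a barrel of stacked rings. The outer rings are built from alpha subunits (Psma genes) and gate the entrance, and the inner rings are built from beta subunits (Psmb genes), some of which carry the proteolytic sites. The cap binds ubiquitin, removes it and unfolds the substrate. Its base holds a ring of ATPases (Psmc genes), and most of its other subunits are Psmd gene products. Alternative caps (Psme), an inhibitor (Psmf1) and dedicated assembly chaperones (Psmg, Psmd5, Psmd9 and Psmd10) complete the set. Cells adjust the subunit genes together through the transcription factor NRF1, encoded by Nfe2l1.

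Libraries held 15738457 to 20644057 counts in genes, with the fewest in YY1 siRNA sample 6. At these depths, 3 counts correspond to 0.145 to 0.191 CPM (counts scaled to a common library total), and such limits cover counting error only. Yy1 fell from 127 ± 0.824 to 79.1 ± 1.86 CPM (SD, n = 3, log2 fold change -0.68, edgeR adjusted p 0.00154), so the libraries match their labels. Of 9 glioma and neural progenitor markers, 7 stood at 10 CPM or more, Olig2 had 0 counts and Gfap at most 2. Microglia, endothelium, neuron and oligodendrocyte lists had 1 of 7, 1 of 5, 0 of 4 and 0 of 4 markers at that level. The exceptions were Tmem119 (46.1 CPM) and Cdh5 (50.3 CPM), averaged over all 6 libraries. YY1 siRNA sample 6 stood apart. Its counts differed from those of samples 4 and 5 by a chi-square per degree of freedom of 32.2 and 23.7, against 11.2 between samples 4 and 5 and 3.07 to 10.7 between control samples. It is also the only library whose table is not marked as combined.

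Because the transfection lowered YY1, the promoters of the proteasome genes were searched for its motif. RefSeq windows of build GRCm38.p6, running from 250 bases before to 50 after the transcription start, were available for 39 of the 47 genes. The YY1 motif was taken as AANATGGCG on either strand. It occurred in 4 of the 39 genes (10.3%), against 6.16% of 9576 tested genes with a window. The 4 genes were Psmb5, Psmb6, Psmc5 and Psmd8, and each sequence below runs 5′ to 3′ on the strand of the gene with the motif in capitals.
Psmb5, chr14:54618068-54618096, minus strand, motif from position -91: gcccggagtaAAAATGGCGccgcctccgt
Psmb5, chr14:54617976-54618004, minus strand, motif from position 2: gcccttgctaAACATGGCGctggctagcg
Psmb6, chr11:70525384-70525406, plus strand, motif from position 38: gtagcagaggAAGATGGCGgccg
Psmc5, chr11:106256178-106256206, plus strand, motif from position 4: cgagagagggAAGATGGCGcttgatgggc
Psmd8, chr7:29180663-29180691, minus strand, motif in reverse from position -8: gacttccgttCGCCATTTTgaatgacagc
Positions count from 1 at the start site. In Psmb6, Psmc5 and the downstream match of Psmb5, the ATG of the motif is the annotated start codon. The antioxidant response element, the kind of site that NRF1 binds, was searched as TGACNNNGC on both strands and occurred in 6 of the 39 genes (15.4%), against 17.1% of tested genes with a window. Psmb5 and Psmb6 held both. The other 4 genes were Psmc6, Psmd9, Psmd12 and Psme4. The elements of Psmb5 and Psmb6, which also held the YY1 motif, and of Psmc6 and Psmd9 are shown in capitals.
Psmb5, chr14:54618024-54618052, minus strand, element from position -47: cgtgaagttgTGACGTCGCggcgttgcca
Psmb6, chr11:70525338-70525366, plus strand, element from position -9: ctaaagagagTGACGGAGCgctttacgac
Psmd9, chr5:123228149-123228177, plus strand, element from position -31: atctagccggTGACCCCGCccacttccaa
Psmc6, chr14:45329587-45329615, plus strand, element in reverse from position -227: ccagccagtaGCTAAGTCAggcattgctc
A match is a description of the letters and not evidence of binding. The 4 genes with the YY1 motif did not share a direction: fitted log2 fold changes were 0.31 for Psmb6, 0.20 for Psmb5, -0.048 for Psmd8 and -0.14 for Psmc5, and none passed the test over all genes.

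No proteasome gene passed the test over all genes. Of the 47, 45 were abundant enough to be tested with edgeR's quasi-likelihood test, and 0 had an adjusted p under 0.05 (smallest 0.380, for Psmb6), where 0.00823% of all 12148 tested genes passed, which is Yy1 alone. DESeq2 and limma-voom called 0 of the 45 as well, with smallest adjusted p of 0.383 and 0.379. DESeq2 called 0.152% of all genes it tested. At an unadjusted p under 0.05, edgeR gave 3 genes, all higher in YY1 siRNA samples, DESeq2 6 and limma-voom 4. The 3 were Psmb1, Psmb6 and Psmc3ip, the last of which shares the name only. The edgeR share of all tested genes at that p was 10.8%, made up of 5.38% higher and 5.46% lower, and 3 of 45 does not exceed it. The limma-voom share of all genes was close to that of edgeR, and 4 of 45 does not exceed it either. For DESeq2 it was 5.53%, and 6 of 45 is above that share, so this reading depends on the tool. The 95% intervals bounded most genes. Changes above 1.5-fold, up or down, fell outside the interval of 36 of the 45, and changes above 2-fold fell outside that of all 45. Among all 12148 tested genes the 1.5-fold bound held for 9985 and the 2-fold bound for 11649. The count of 36 of 45 does not exceed the first of these shares. The 1.5-fold bound held for 18 of 20 cap genes but for 9 of 14 core genes, and for 3 of 7 in the alpha ring. It did not hold for Psma3, Psma5, Psma6, Psma7 and Psmb1.

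The core and the cap differed in where their fitted values lay. Of 14 tested core genes, 13 had a fitted change above 0 in YY1 siRNA samples and the median log2 fold change was 0.18. Of 20 cap genes, 12 were above 0 with a median of 0.0065, and of 10 other genes 5, with a median of 0.0040. All tested genes had 50.2% above 0 and a median of 0.00071. The core median moved in both directions with the library left out. Without YY1 siRNA sample 6 it was 0.068, with 13 of 14 above 0, and without YY1 siRNA sample 5 it was 0.28, with 14 of 14. The cap median was -0.0030 with 9 of 20 above 0 without sample 6, and 0.032 with 15 of 20 without sample 5. These counts and medians describe the lists, and the difference between core and cap was not tested.

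**Figure D1:**
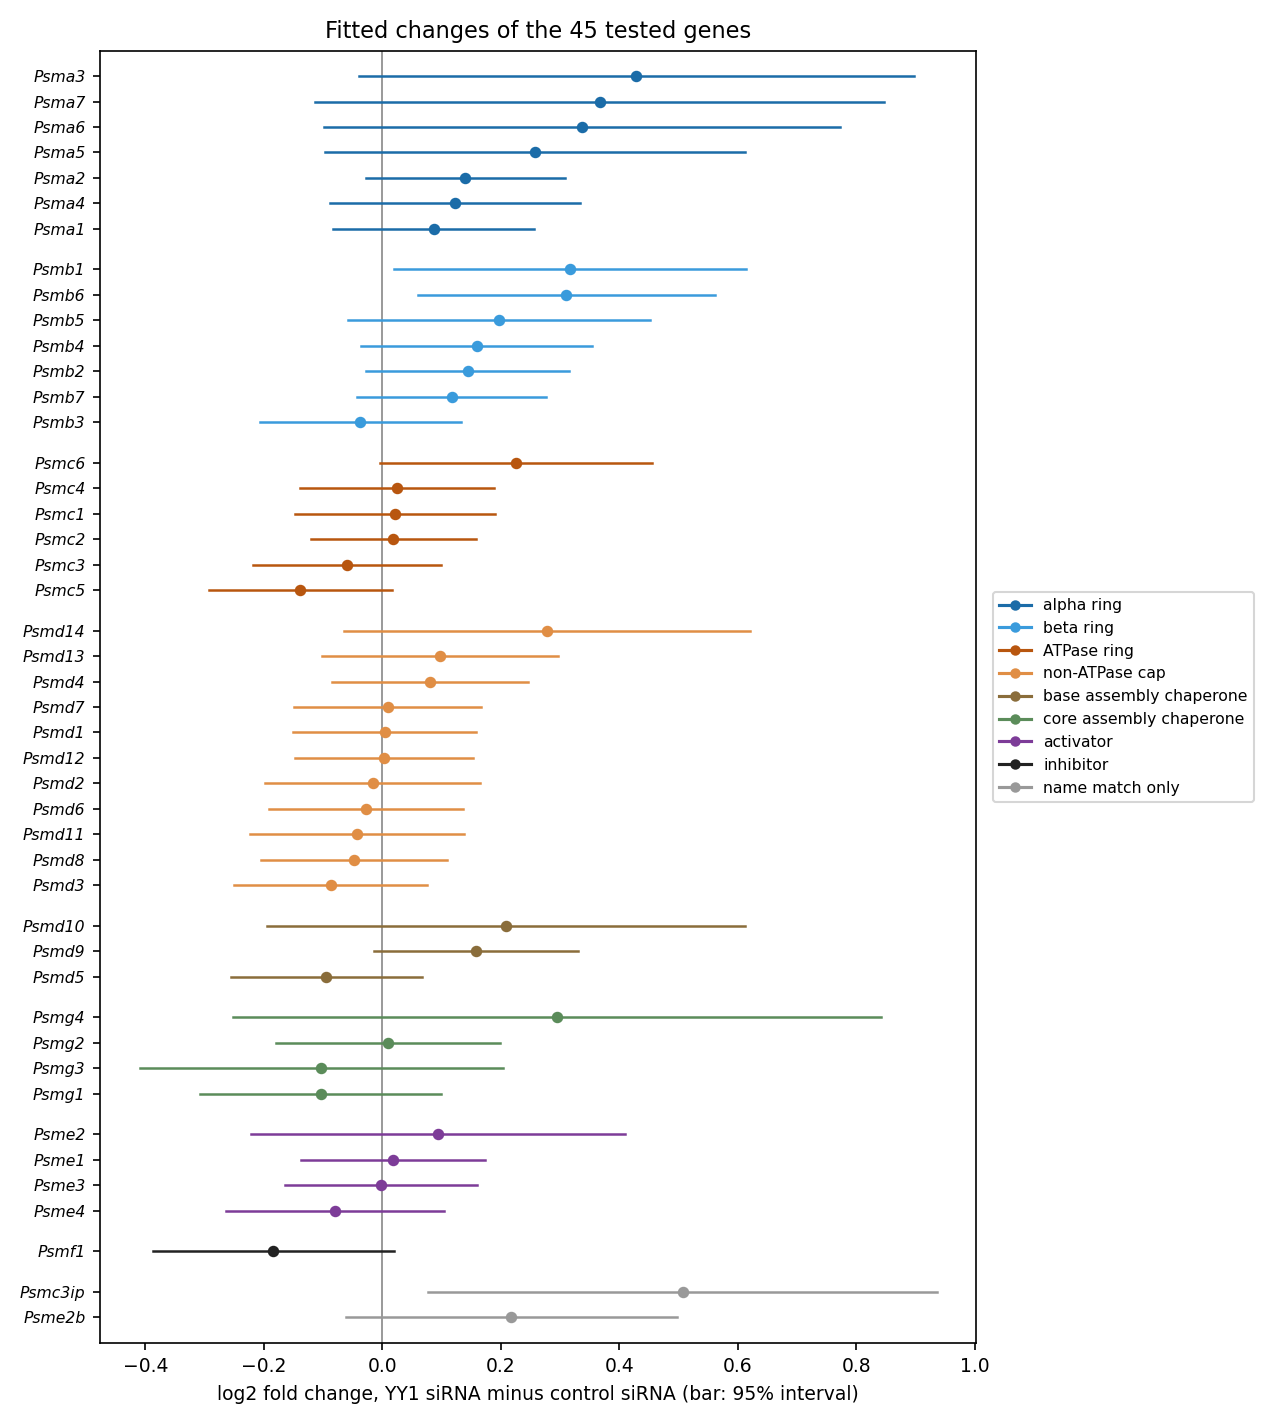
Fitted log2 fold change of each of the 45 tested genes, YY1 siRNA minus control siRNA, with its 95% interval, grouped by role. The intervals of Psmb1, Psmb6 and Psmc3ip exclude 0 before adjustment for multiple testing; the alpha ring genes all lie to the right of 0 and the cap genes on both sides.

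Within single libraries the same contrast appeared as a spread between samples of one group. For each core gene, log2(CPM + 0.5) in a library was set against that gene's 6-library mean, and the core level is the median of these values. It was -0.16, -0.13 and 0.011 in control samples 1, 2 and 3 and 0.033, -0.051 and 0.30 in YY1 siRNA samples 4, 5 and 6. The groups overlapped, since control sample 3 lay above YY1 siRNA sample 5, and sample 6 stood alone at the top. The cap level was 0.0051, -0.021, 0.024, 0.057, -0.097 and 0.029 in the same order, with the highest and the lowest values both in the YY1 siRNA group. Of the 14 core genes, 12 had their highest level in sample 6 and 11 their lowest in control sample 1. Of the 20 cap genes, 7 were highest in sample 6 and 8 in sample 4. Of the 10 other genes, 6 were also highest in sample 6. Among all 12148 tested genes, 27.1% were highest in sample 6, 2152 genes were highest in sample 4 and 2154 were lowest in control sample 1. Sample 6 was also the lowest library for 3587 genes.

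**Figure D2:**
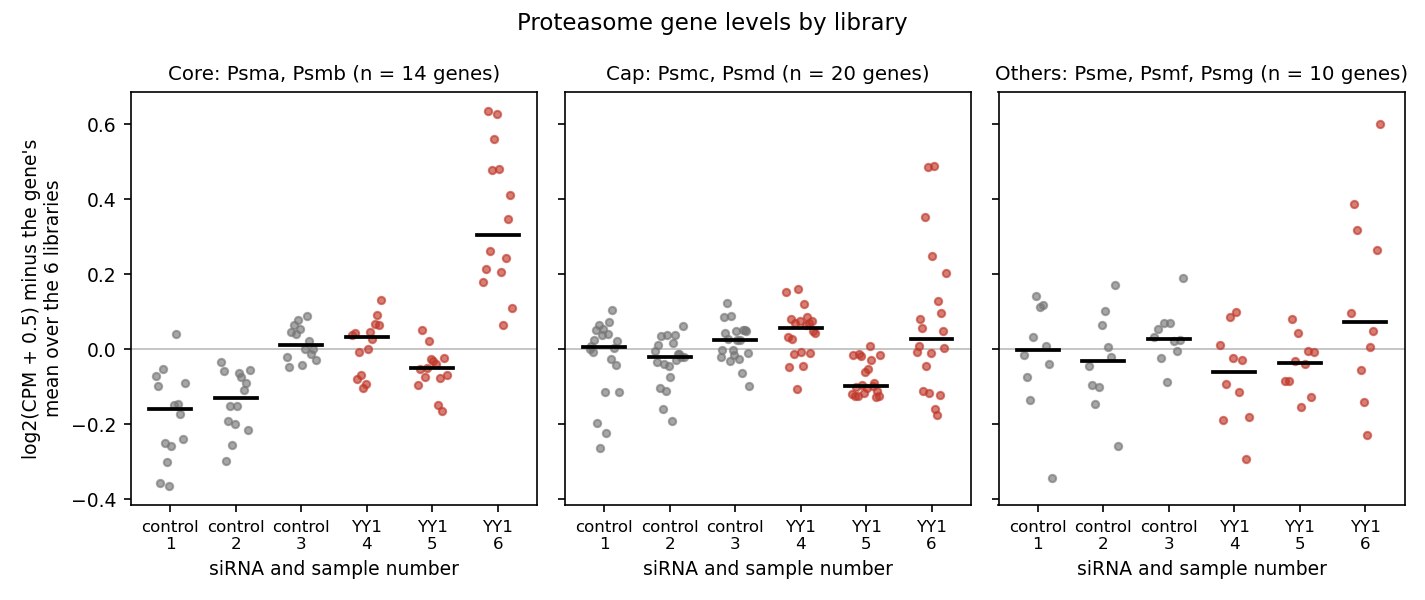
Level of each gene in each library, as log2(CPM + 0.5) minus the mean of that gene over the 6 libraries, for the core, the cap and the other genes (points: genes; black lines: medians). Core genes sit highest in YY1 siRNA sample 6 (median 0.30) and lowest in control sample 1 (-0.16), while cap medians stay between -0.097 and 0.057.

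Summed over the genes of each part, core transcripts were at 2362, 2466 and 2780 CPM in control samples 1 to 3 and at 2736, 2668 and 3655 CPM in YY1 siRNA samples 4 to 6. Cap transcripts were at 3018, 2988 and 3057 CPM and at 3173, 2909 and 3186 CPM. The ratio of the core sum to the cap sum was 0.783, 0.826 and 0.910 in control samples and 0.862, 0.917 and 1.15 in YY1 siRNA samples, so core and cap counts did not keep a fixed proportion from library to library. Control sample 3 lay above YY1 siRNA sample 4 in this ratio, and sample 6 was the only library above 1. In bulk RNA a change in the number of cells of a type and a change in RNA per cell cannot be told apart.

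Most core genes have short transcripts, and short transcripts as a class were high in the same library. Principal transcripts had a median length of 1162 bases in the core, 1710 in the cap and 1052 among the others. Of all tested genes, the lowest quartile of transcript length had median levels of -0.048, -0.035 and 0.011 in the control samples and 0.0071, -0.043 and 0.11 in the YY1 siRNA samples, in sample order. The core followed the same order at the extremes, lowest in control sample 1 and highest in YY1 siRNA sample 6, with a wider range. The Pearson correlation of log2 fold change with log2 transcript length was -0.191 over all genes and -0.332 over the 45 tested genes of the set. It was 0.296 over the 14 core genes and -0.154 over the 20 cap genes. The lowest quartile of transcript GC, which holds 5 core genes, stood at 0.081 in YY1 siRNA sample 6. When the fit carried length and GC offsets, the core median was 0.10 with 12 of 14 above 0. The other genes, with a median length below that of the core, had a level of 0.073 in sample 6. Counts in no gene were also most common in sample 6 (11.3%), against 7.99% to 9.03% in control samples. Sample 5 was nearly as high (10.7%), while its core level of -0.051 lay below control sample 3. The part of transcript length, of GC, of the uncombined table and of the share in no gene in the core values was not tested beyond the fit with offsets.

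**Figure D3:**
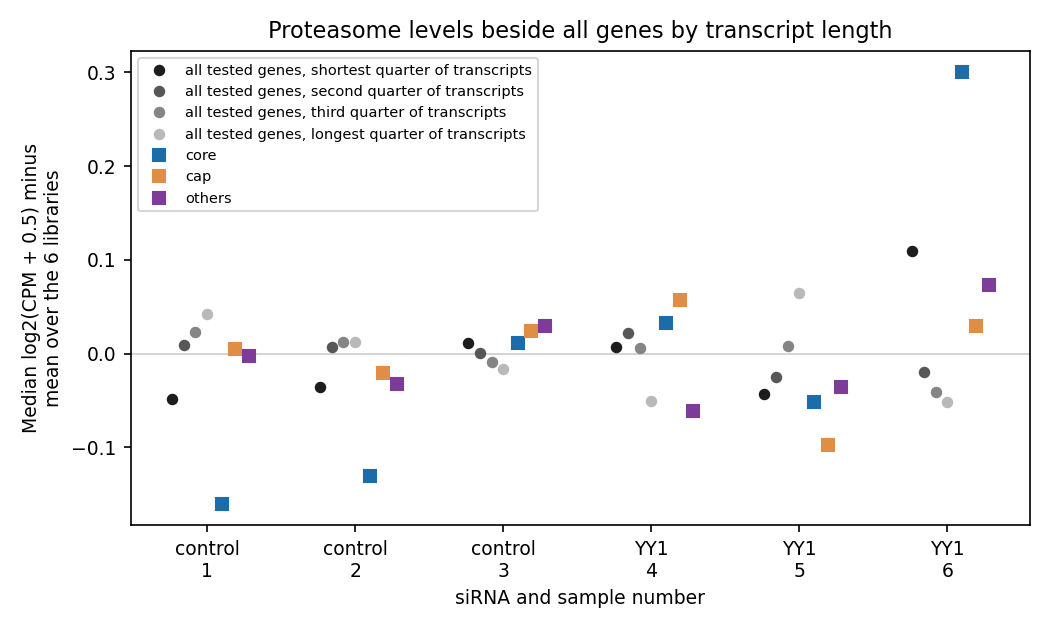
Median level in each library (log2(CPM + 0.5) minus the mean over the 6 libraries) of core, cap and other proteasome genes, beside all tested genes in the quartiles of transcript length. In YY1 siRNA sample 6 the shortest quartile stood at 0.11 and the core at 0.30.

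In 4 of the 45 genes the values of the groups did not overlap. Psmb1 and Psmd9 were higher in every YY1 siRNA sample than in any control sample, and Psmc5 and Psmg1 were lower. Of all tested genes 16.3% had groups without overlap, 7.36% higher and 8.91% lower, so with all 6 libraries the count of 4 does not exceed the background.

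The alpha ring held the largest fitted changes of the core, none past the adjusted threshold. All 7 tested Psma genes were highest in YY1 siRNA sample 6, and the ring's median log2 fold change was 0.26, or 0.058 without that sample. Psma3 (chromosome 12, 70974621 to 70996347, plus strand, mm10), a subunit of the gating ring, was at 129, 134 and 170 CPM in control samples and 156, 171 and 256 CPM in YY1 siRNA samples. Sample 6 was far above the rest, and control sample 3 lay among the YY1 siRNA values. On the log2 scale the fitted change was 0.43 (SE 0.199, edgeR adjusted p 0.482), and 0.17 without sample 6. Psma3 has stretches of at least 200 bases at 95% identity or more in 3 other annotated genes, so its counts are uncertain. Of the 47 genes, 12 have such stretches elsewhere, Psma5 among them. Exons of 13 overlap another gene, Psma5 and Psmb7 among them. The same limit holds for these genes where it is not repeated below.

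Psma7 had the highest level of the core per kilobase of transcript. It was at 359, 403 and 480 CPM in control samples and 433, 454 and 714 CPM in YY1 siRNA samples. Psma6 followed the same order of libraries, at 210, 217 and 274 CPM and 241, 263 and 382 CPM. For both genes control sample 3 was above YY1 siRNA samples 4 and 5, and the fitted log2 fold changes were 0.37 and 0.34 (edgeR adjusted p 0.529 and 0.525). Without sample 6 they were 0.093 and 0.10. Psma5 had the same pattern with a smaller fitted value of 0.26, or 0.049 without sample 6. Psma1 was the flattest of the ring, at 182, 187 and 189 CPM and 197, 179 and 217 CPM, with a fold change of 1.06 (95% interval 0.943 to 1.19). Its log2 value of 0.087 was 0.0085 without sample 6. Psma2 and Psma4 stood at 138 ± 2.64 and 91.4 ± 8.15 CPM in control samples and 152 ± 14.3 and 99.7 ± 12.7 CPM in YY1 siRNA samples. The germ cell subunit gene Psma8 had 1 count in control sample 1 and 0 in the other 5 libraries, which is under the floor of 3 counts.

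The catalytic beta subunits were higher on average in YY1 siRNA samples, by less than the test could separate from the spread. Psmb6 (chromosome 11, 70525367 to 70527858, plus strand), which carries the caspase-like site, was at 205, 209 and 242 CPM in control samples and 253, 238 and 322 CPM in YY1 siRNA samples. The groups overlapped at a single point, where control sample 3 lay above YY1 siRNA sample 5. Its fitted change was 0.31 on the log2 scale (SE 0.113, 95% interval 0.060 to 0.56, edgeR adjusted p 0.380), the smallest adjusted p of the set, and 0.16 without sample 6. Psmb7, with the trypsin-like site, was at 158, 162 and 165 CPM and 184, 160 and 181 CPM, with 0.12 fitted on the log2 scale (SE 0.0736, edgeR adjusted p 0.549). That value was 0.085 without sample 6 and 0.18 without sample 5. Here sample 4 was the highest library, unlike in the alpha ring.

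Psmb5 (chromosome 14, 54614119 to 54618022, minus strand), with the chymotrypsin-like site, had the lowest level per kilobase of the tested core genes. It stood at 27.9, 29.5 and 31.2 CPM in control samples and 33.6, 28.0 and 40.2 CPM in YY1 siRNA samples. Sample 5 lay among the controls, with samples 4 and 6 above them. A log2 fold change of 0.20 was fitted (SE 0.116, edgeR adjusted p 0.532), which was 0.055 without sample 6 and 0.32 without sample 5. Per kilobase of principal transcript, Psmb5 was at 32.9 CPM in control samples, against 274 for Psmb6 and 139 for Psmb7. A stretch of the Psmb5 transcript is near-identical to Gm3375, and the exons overlap Mir686, which makes its counts uncertain. Psmb8, which replaces Psmb5 in the immunoproteasome, stood at 28.8 CPM per kilobase in control samples and had a log2 fold change of -0.085, or -0.18 without sample 6.

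Among the structural beta subunits, Psmb1 (chromosome 17, 15475021 to 15499751, minus strand) was the core gene whose groups did not overlap. It was at 269, 290 and 313 CPM in control samples and 322, 315 and 449 CPM in YY1 siRNA samples. YY1 siRNA sample 5 exceeded control sample 3 by a small step, and sample 6 was high. The fit gave 0.32 on the log2 scale (SE 0.132, edgeR adjusted p 0.431), or 0.13 without sample 6. Psmb4 stood at 289 ± 17.8 CPM in control samples and at 323 ± 35.9 CPM in YY1 siRNA samples. Psmb2 was at 77.0, 81.8 and 85.4 CPM and 88.3, 83.2 and 98.5 CPM. Psmb3 was the core gene with a fitted value below 0 (-0.037). It was at 80.8, 74.7 and 83.5 CPM and 80.0, 70.9 and 82.2 CPM, with overlapping groups, and near-identical stretches in 3 other genes make its counts uncertain. The thymic subunit gene Psmb11 had 1 count in YY1 siRNA sample 5 and 0 elsewhere.

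**Figure D4:**
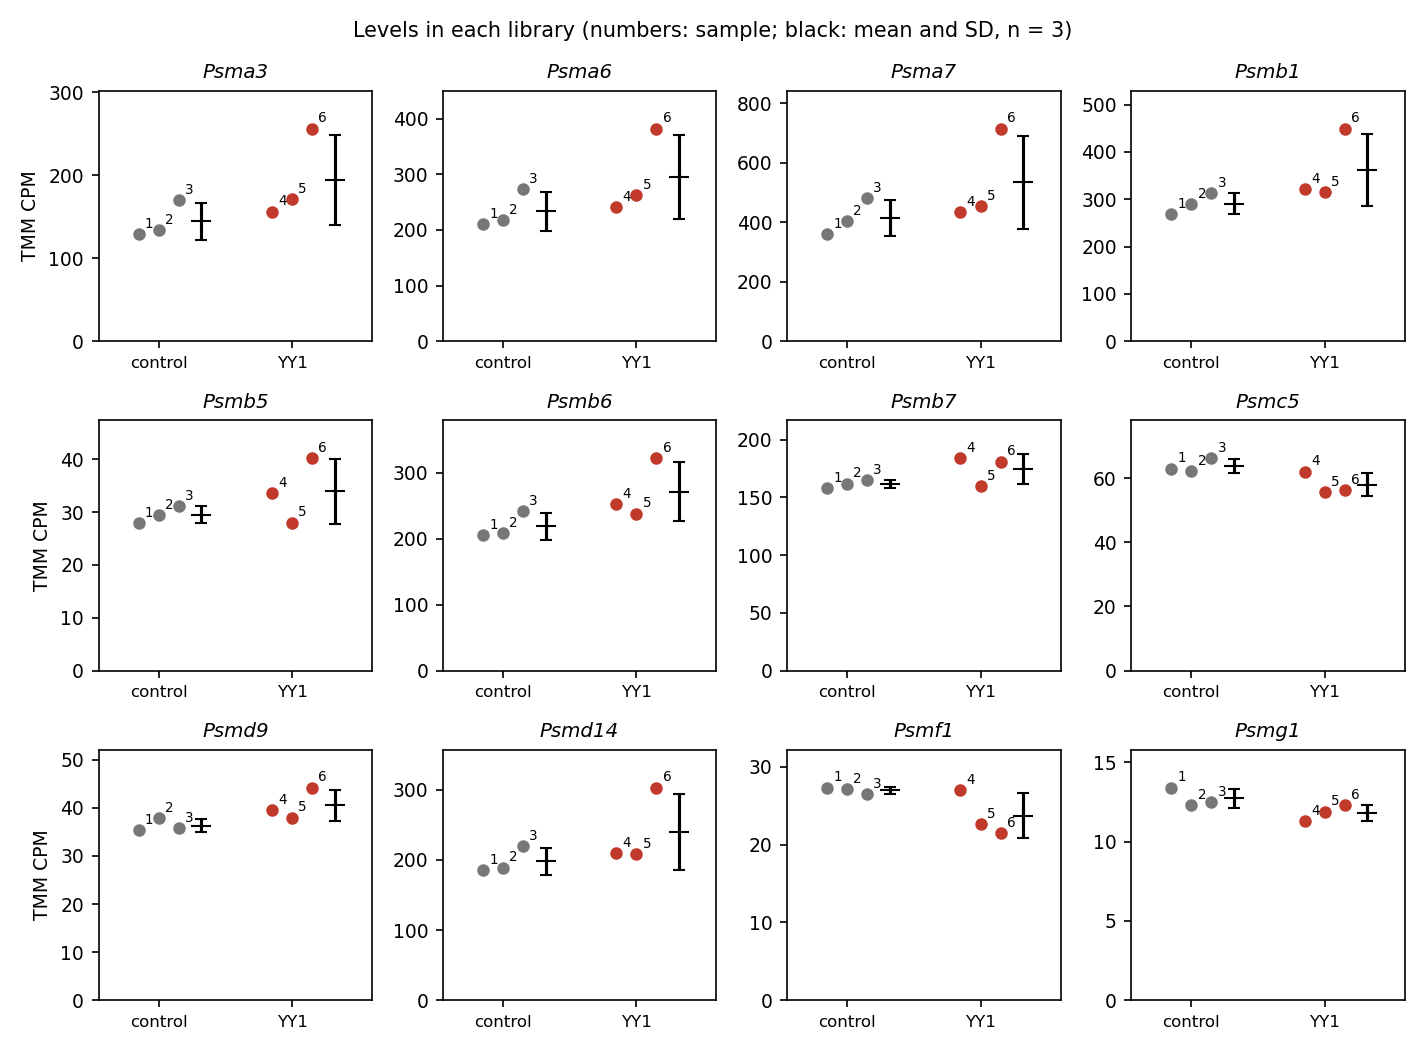
TMM-normalised CPM in each library for 12 proteasome genes; each panel has its own axis from 0, numbers give the sample, and black marks give mean and SD (n = 3). YY1 siRNA sample 6 is the highest library for the Psma genes, Psmb1, Psmb5, Psmb6, Psmd9 and Psmd14, while Psmc5 and Psmg1 have every YY1 siRNA value below every control value.

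No cap ATPase gene passed the test; 4 of the 6 had a fitted change above 0, and the median was 0.020. Psmc5 (chromosome 11, 106256154 to 106263120, plus strand) was at 63.0, 62.3 and 66.2 CPM in control samples and 62.0, 55.7 and 56.2 CPM in YY1 siRNA samples. Sample 4 lay just below the lowest control, so the groups did not overlap, by a narrow step. A log2 fold change of -0.14 was fitted (SE 0.0715, 95% interval -0.29 to 0.017, edgeR adjusted p 0.494) and -0.18 to -0.11 with any 1 library left out. Psmc6 was at 159, 163 and 186 CPM and 181, 181 and 233 CPM, with control sample 3 above 2 of the YY1 siRNA samples. The fitted log2 difference was 0.23 (SE 0.105, edgeR adjusted p 0.467), or 0.088 without sample 6. Psmc1, Psmc2, Psmc3 and Psmc4 had means of 170, 121, 142 and 97.4 CPM in control samples and 172, 123, 136 and 99.1 CPM in YY1 siRNA samples. All 6 ATPase genes had a 95% interval within 1.5-fold.

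The other structural cap subunits had fitted changes on both sides of 0. Of 11 genes, 6 had a fitted change above 0 and 5 below, with a median of 0.0033, and 10 had a 95% interval within 1.5-fold. The exception was Psmd14, the deubiquitinase that strips ubiquitin chains from substrates, at 185, 189 and 220 CPM in control samples and 210, 208 and 303 CPM in YY1 siRNA samples. As for Psma5, Psma6 and Psma7, control sample 3 lay above samples 4 and 5. On the log2 scale the fitted change was 0.28 (SE 0.149, edgeR adjusted p 0.516), or 0.070 without sample 6. The largest fitted decrease was in Psmd3, a lid subunit, at 167, 163 and 161 CPM and 166, 156 and 140 CPM, with -0.087 fitted on the log2 scale (SE 0.0751, edgeR adjusted p 0.665). Sample 6 was the lowest library there, and without it the value was -0.032.

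The large scaffold subunits Psmd1 and Psmd2 were at 269 ± 10.8 and 375 ± 8.48 CPM in control samples and 270 ± 11.4 and 371 ± 35.8 CPM in YY1 siRNA samples. Psmd4, a ubiquitin receptor, was at 246, 245 and 239 CPM and 265, 234 and 273 CPM. Psmd8, the cap gene with the YY1 motif on the reverse strand, was at 260, 267 and 255 CPM and 265, 235 and 257 CPM, so the control values lay inside the YY1 siRNA range except for sample 2. Psmd6, Psmd7, Psmd11, Psmd12 and Psmd13 had control means of 50.3, 92.8, 183, 148 and 99.0 CPM and YY1 siRNA means of 49.4, 93.4, 178, 148 and 106 CPM.

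The chaperones that build the base and the core showed no shared direction. Psmd9 (chromosome 5, 123169413 to 123250131, plus strand), a base chaperone, was at 35.4, 37.8 and 35.8 CPM in control samples and 39.6, 38.0 and 44.2 CPM in YY1 siRNA samples. The groups did not overlap, with sample 5 just above control sample 2. Its fitted change was 0.16 on the log2 scale (SE 0.0796, edgeR adjusted p 0.485), or 0.087 without sample 6. Exons of Gm26745 lie over Psmd9 on the other strand, and without a known strand setting their reads cannot be told apart. The base chaperone gene Psmd10 was at 54.3, 60.4 and 69.4 CPM and 60.6, 61.1 and 91.6 CPM, a fitted value of 0.21 that was -0.019 without sample 6. Psmd5, the remaining base chaperone, was at 79.1, 73.0 and 76.3 CPM and 77.3, 69.1 and 67.5 CPM, with sample 4 among the controls.

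Of the core chaperones, Psmg1 was at 13.4, 12.3 and 12.5 CPM in control samples and 11.3, 11.9 and 12.3 CPM in YY1 siRNA samples. The groups did not overlap, and the highest YY1 siRNA value almost met the lowest control. The fit gave -0.10 on the log2 scale (SE 0.0939, edgeR adjusted p 0.681), or -0.064 without sample 4. Psmg4 was at 15.7, 16.7 and 22.9 CPM and 17.6, 19.9 and 30.6 CPM, with 0.29 fitted on the log2 scale (SE 0.233, edgeR adjusted p 0.646), or 0.023 without sample 6. Psmg2 was at 13.9, 13.6 and 13.7 CPM and 13.5, 13.7 and 14.3 CPM. Psmg3 was at 9.86, 11.5 and 10.3 CPM and 8.18, 9.24 and 12.3 CPM, with both extremes in the YY1 siRNA group. Psmg3 shares sequence with Gm26938.

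None of the activator genes nor the inhibitor gene passed the test. Psme1 and Psme2, which form the interferon-induced activator ring, were at 66.9 ± 1.81 and 70.9 ± 4.05 CPM in control samples and 67.7 ± 4.27 and 75.8 ± 16.9 CPM in YY1 siRNA samples. Psme2 was at 69.0, 68.1 and 75.5 CPM in control samples and 63.7, 68.6 and 95.1 CPM in samples 4, 5 and 6, and its fitted log2 change, 0.094 (SE 0.139, edgeR adjusted p 0.816), became -0.11 without sample 6. Psme3, the nuclear activator, was at 58.9 ± 3.65 and 58.8 ± 3.12 CPM, a fold change of 0.999 (95% interval 0.892 to 1.12). Psme4, which encodes a large single-chain activator, was at 403, 383 and 344 CPM and 360, 377 and 332 CPM, with overlapping groups.

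Psmf1 (chromosome 2, 151715812 to 151744186, minus strand), which encodes a proteasome inhibitor, had the largest fitted decrease of all 45 genes. It was at 27.3, 27.1 and 26.5 CPM in control samples and 27.0, 22.6 and 21.5 CPM in YY1 siRNA samples. Sample 4 was at the control level and samples 5 and 6 were lower. A log2 fold change of -0.18 was fitted (SE 0.0940, 95% interval -0.39 to 0.020, edgeR adjusted p 0.493), or -0.28 without sample 4. Psme2b, a near-identical copy of Psme2, was at 7.20 ± 0.365 and 8.42 ± 1.29 CPM and its reads cannot be told from those of Psme2 over shared stretches. Psmc3ip was at 4.28, 3.84 and 6.13 CPM and 5.82, 6.16 and 8.42 CPM, with 0.51 fitted on the log2 scale (SE 0.195, edgeR adjusted p 0.401), or 0.33 without sample 6, and its exons overlap Mlx on the other strand.

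Levels per transcript length spread widely within each ring. In control samples, Psma genes ranged from 47.4 CPM per kilobase (Psma2) to 453 (Psma7), and Psmb genes from 32.9 (Psmb5) to 274 (Psmb6). The ATPase genes spanned a narrower range, from 48.5 (Psmc5) to 107 (Psmc1). The Psmg chaperones were at 11.9 to 33.2, Psme2b at 8.60 and Psmf1 at 7.08. The lengths are those of 1 annotated principal transcript per gene, and a long annotated transcript, as for Psma2 and Psma3 (2911 and 2846 bases), lowers the value.

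**Figure D5:**
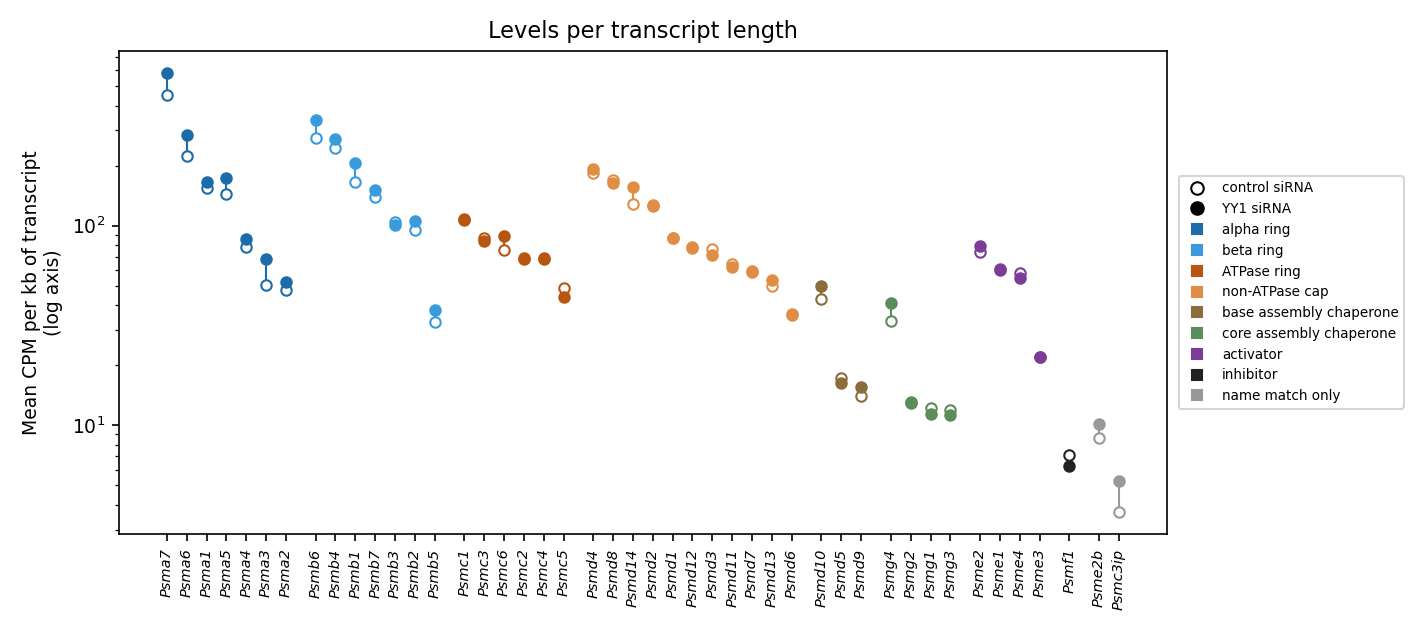
Mean CPM per kilobase of principal transcript on a log axis for the 45 tested genes, grouped by role (open circles: control siRNA; filled: YY1 siRNA; n = 3 each). Psma7 is the highest at 453 in control samples, Psmb5 lies far below the other beta subunits at 32.9, and Psmf1 (7.08) is the lowest apart from Psmc3ip (3.68).

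Other genes of the pathway did not pass the test either. Of 10 proteasome-bound factors 0 passed, and their median log2 fold change was 0.021. At an unadjusted p under 0.05, 1 of them was higher and 1 lower, against 5.38% and 5.46% of all tested genes. Zfand5, which encodes a zinc finger protein that stimulates the proteasome, was at 261, 267 and 244 CPM in control samples and 283, 305 and 308 CPM in YY1 siRNA samples. Its groups did not overlap, and the fitted log2 change was 0.21 (SE 0.0729, edgeR adjusted p 0.344), or 0.085 with length and GC offsets. Ube3c, which encodes a ubiquitin ligase bound to the cap, was at 79.1, 77.0 and 78.4 CPM and 72.0, 70.9 and 67.7 CPM. Its groups did not overlap either, and the fitted log2 change was -0.16 (SE 0.0656, edgeR adjusted p 0.424). Usp14, another of these factors, was also lower in every YY1 siRNA sample than in any control sample (fitted log2 change -0.081). Of all tested genes, 16.3% had groups without overlap. The cap subunit gene Sem1 and the ubiquitin receptor gene Adrm1, which lack Psm names, were at 165 ± 2.11 and 36.0 ± 1.75 CPM in control samples and 179 ± 24.4 and 33.5 ± 3.69 CPM in YY1 siRNA samples.

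The regulator list had 0 of 9 genes past the threshold and a median of -0.038. Nfe2l1 itself was at 412 ± 25.1 and 404 ± 35.2 CPM, and its relative Nfe2l2 at 209 ± 2.22 and 201 ± 19.0 CPM. Syvn1, which encodes a ubiquitin ligase of the endoplasmic reticulum, was at 50.7, 47.4 and 47.2 CPM and 55.7, 56.1 and 51.4 CPM, with 0.17 fitted on the log2 scale (SE 0.0715, edgeR adjusted p 0.425) and groups that did not overlap. Of 11 tested shuttle receptor and segregase genes, 0 passed and 2 had a fitted change above 0, against 50.2% of all tested genes. Ubqln2, a shuttle receptor gene, was at 143, 138 and 124 CPM and 119, 122 and 106 CPM, with -0.22 fitted on the log2 scale (SE 0.0799, edgeR adjusted p 0.364) and groups that did not overlap. The segregase gene Vcp was at 269 ± 12.2 and 263 ± 26.8 CPM.

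The core maturation factor gene Pomp was at 191 ± 11.6 and 207 ± 25.9 CPM, with sample 6 highest at 235 CPM, as in the core genes. None of 6 ubiquitin and E1 genes passed. Ubb, a polyubiquitin gene, was at 17.8, 17.7 and 3.70 CPM and 19.5, 14.7 and 19.5 CPM, so control sample 3 stood far below the other 5 libraries. The 5 immunoproteasome and peptide transporter genes all had fitted changes below 0 with a median of -0.085, and 0 passed. Of all tested genes, 50.2% had a fitted change above 0.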

How the data were processed

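RNA-seq was done on 3 control siRNA and 3 YY1 siRNA samples. The authors deposited whole-number read counts per gene symbol. Build mm10, STAR 2.6.1a and edgeR 3.30.0 are named per the submitters' processing notes. Counting program, annotation and strandedness remain not given in the sources used here. Counts in no gene (7.87% to 11.3%) and ambiguous counts (1.01% to 1.15%) were left out.

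Groups were compared in R 4.3.3 with edgeR 4.0.16 (glmQLFit and glmQLFTest, two-sided), using filterByExpr, TMM and robust dispersion, adjusted by Benjamini and Hochberg over 12148 genes at 0.05. CPM values are TMM-normalised, as mean ± SD (n = 3). Gene models came from GENCODE M21 (98.3% of symbols matched), with the APPRIS principal transcript for length, and promoters from RefSeq. Alternatives were other scalings and filters, DESeq2 1.42.0, limma-voom (limma 3.58.1), length and GC offsets (mgcv 1.9.3), and each library left out. The steps were tested on simulated counts. Genes and lists were chosen with earlier results of these data known. Values in every library are given for the catalytic subunits, the largest fitted rise and fall in each role, genes with an unadjusted p under 0.05, and further genes added after their values were seen.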

Additional observations from a re-analysis of the deposited data

Results flagged for a closer look

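Counts that fell in no gene were left out of the comparisons above. They made up 11.3% of YY1 siRNA sample 6 and 10.7% of sample 5, more than in any control siRNA sample (at most 9.03%). In YY1 siRNA sample 4 they made up 7.87%.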

How the results depend on the processing

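No proteasome gene passed the adjusted threshold under any of the 8 other settings or with any library left out (smallest edgeR adjusted p 0.129, without YY1 siRNA sample 4). Among all genes, 83 passed with no filter on low counts, 34 without YY1 siRNA sample 4, 19 with DESeq2 and 16 with length and GC offsets. With library size alone 7 passed, and in the remaining fits 1 to 3. No paired analysis was possible because control siRNA and YY1 siRNA samples share no number. Genes at an unadjusted p under 0.05, 3 in the main test, numbered 6 with library size alone (11.6% of all genes), 6 with DESeq2 (5.53%) and 7 with length and GC offsets (13.8%). With a library left out they numbered 0 to 12: 0 without control siRNA sample 1 (5.40%) or 2 (6.38%), 6 without control siRNA sample 3 (11.3%), 12 without YY1 siRNA sample 4 (19.1%), 12 without sample 5 (11.7%) and 1 without sample 6 (8.20%). These counts at an unadjusted p lay above their shares with library size alone, DESeq2 and the offsets. With a library left out, they lay above without control siRNA sample 3 or YY1 siRNA sample 4 or 5. They lay below without control siRNA sample 1 or 2 or YY1 siRNA sample 6. Genes with groups that do not overlap, 4 in the main test, were 2 with a filter of at least 1 CPM in 3 libraries (16.6% of all genes). They were 4 to 20 with a library left out, 20 without control siRNA sample 3 (32.1% of all genes), 14 without YY1 siRNA sample 5 (28.6%) and 8 without YY1 siRNA sample 4 (36.7%). Among all genes such groups made up 20.6% to 36.7% with a library left out, against 16.3% in the main test. The counts of 20 and 14 lay above their shares, and the count of 8 below. The median of the other genes was -0.061 with length and GC offsets. With these offsets Psma1 (-0.036), Psme2 (-0.0045) and Sem1 (-0.062) changed sign. With a library left out, Psmd10 ranged from -0.019 to 0.32, Psmd13 from -0.017 to 0.17 and Psme2 from -0.11 to 0.21, each below 0 without YY1 siRNA sample 6. Psmb3 ranged from -0.085 to 0.025 and Psmd8 from -0.079 to 0.00058, each above 0 without YY1 siRNA sample 5. For all these shifts the cause was not tested. Over all 45 genes, 22 of 360 values under other settings and 29 of 270 with a library left out had the opposite sign, for genes with a main value of at most 0.21.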
